A study of Homo sapiens with 15 samples.

Results

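Clones 1 and 2 (labelled C#1 and C#2) were compared with clone 6 (C#6), all 3 of them sublines of BT474 that resist trastuzumab emtansine (T-DM1). BT474 is a human breast cancer cell line of luminal type with amplified HER2. The arrays were taken by their titles: 6 arrays of clones 1 and 2, 3 for each, and 3 arrays of clone 6, which makes 9 of the 15 arrays in the series. Per the labels' protocols, every clone was grown out from a single BT474 cell that had survived long T-DM1 exposure, and was then held in 5 nM of the drug over 3 months in serum-containing medium. All 3 lines therefore share the parental line, the selection and the drug culture, their DNA was not examined, and no parental array enters the contrast. The other 6 arrays, 3 of clone 3 and 3 of untreated parental cells, entered the statistical fit and serve below as reference levels. Each line is 1 clone, so the arrays, which the labels call biological replicates, replicate the line and not the act of selection. The labels do not say whether clones 1 and 2 descend from 1 resistant ancestor. The comparison asks how resistant lines from the same selection differ from each other.

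T-DM1 is an antibody against the receptor tyrosine kinase HER2 with a maytansine-type microtubule poison attached. Bound to HER2 it is taken up by endocytosis and digested in lysosomes, which frees the poison, and cells with disrupted microtubules stop in mitosis. Genes of the HER2 region, of vesicle traffic, lysosomes, microtubules, mitosis, drug export and cell death are therefore the ones usually looked at in resistant lines. They are described below beside the genes that differed most.

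Values are log2 expression values, and every difference is the mean of clones 1 and 2 minus that of clone 6, so a positive value means higher in clones 1 and 2. A gene was called when limma's adjusted p (Benjamini-Hochberg over all 12147 genes tested) was below 0.05. Of these genes, 1885 (15.5%) were called: 1003 (8.26%) were higher in clones 1 and 2 and 882 (7.26%) were lower. Counts of called genes in the lists below are to be read beside these shares. Most differences were small: 1330 of the called genes differed by less than 1.5-fold and the median size of a called difference was 0.47. At least 2-fold differences numbered 68 higher (0.56%) and 41 lower (0.338%). The 6 arrays of clones 1 and 2 all lay above the 3 of clone 6 for 1061 genes (8.73%) and all below for 942 (7.76%). Without clone 6 replicate 3 the lower count was 537. Probe sets without a gene symbol, 21751 of them detected, were tested in a fit of their own, with 518 (2.38%) higher and 496 (2.28%) lower.

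The arrays carried markers of luminal breast epithelium. KRT18, KRT19, EPCAM and FOXA1 stood at or above the 96.6th percentile of all probe sets, ESR1 at the 89.5th, GATA3 at the 79.6th and KRT8 at the 73.9th. Of the markers of other cells, the basal keratin KRT5, the fibroblast gene DCN and the endothelial gene PECAM1 did not pass the filter on dim probe sets, while the basal keratin KRT14 (49.8th percentile), the endothelial gene VWF (47.1st) and the monocyte gene CD14 (41.4th) passed it. Of 7 tested blood cell markers 0 were called. Of 4 tested fibroblast and endothelial markers 1 was called, the endothelial adhesion gene ESAM at -0.32; without clone 2 replicate 3, clone 6 replicate 2 or clone 6 replicate 3 none of these 4 was called, and without clone 1 replicate 1 or clone 2 replicate 2 there were 2. Over all probe sets (not independent points), arrays of clone 1 correlated with those of clone 2 at 0.985 to 0.991 and arrays of clones 1 and 2 with those of clone 6 at 0.979 to 0.986.

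The gene with the largest difference was FAR2, fatty acyl-CoA reductase 2, which turns activated fatty acids into fatty alcohols. Its level was 7.31, 7.50 and 7.66 (lowest, median and highest of the 6 arrays) in clones 1 and 2, and 3.94, 3.95 and 4.11 in the arrays of clone 6. FAR2 was thus 11.2-fold higher in clones 1 and 2, a log2 difference of 3.49 (SE 0.11, adjusted p = 5.32e-12). Its clone 6 levels were near the median of all probe sets in those arrays (4.03 to 4.10). RMA compresses such low values, so the size of the fold is uncertain. Parental cells had a mean of 7.48 and clone 3 one of 4.58, so clones 1 and 2 stood at the parental level and clones 6 and 3 far below it. RASSF2, a Ras-association domain protein, followed: its levels were 8.58, 9.12 and 9.34 in clones 1 and 2, and 6.27, 6.49 and 6.34 in clone 6. That difference was 2.67 (SE 0.13, adjusted p = 1.94e-09), with clone 3 again low (6.63). NCCRP1, which belongs to the F-box-associated protein family, ran from 7.26 to 8.29 in clones 1 and 2 and from 4.75 to 5.55 in clone 6. The 15 leading genes of each direction were picked only from called genes whose arrays did not overlap, so these 3 have none that do by choice.

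The other genes with large positive differences had varied known roles. DSG2, the desmosomal cadherin desmoglein 2, lay at 7.74, 7.94 and 8.43 in clones 1 and 2, and at 5.57, 6.16 and 5.78 in clone 6, a difference of 2.16 (SE 0.13, adjusted p = 1.71e-08). CD47, a surface protein that restrains uptake by macrophages, lay at 7.53, 7.57 and 7.77 against 5.93, 5.87 and 6.14, a difference of 1.64 (SE 0.09, adjusted p = 4.46e-09). Its parental mean was 7.74, so clone 6 had less CD47 transcript than clones 1 and 2 and parental cells. DIAPH2, a formin that builds unbranched actin filaments, differed by 2.04 (SE 0.11), PLS3, the actin-bundling plastin 3, by 1.85 (SE 0.11), and CFL2, the actin-severing cofilin 2, by 1.68 (SE 0.17). In CFL2, clone 1 replicate 2 (5.94) stood above the other 5 arrays of clones 1 and 2, which reached from 5.27 to 5.45. TNC, the matrix protein tenascin C, was higher by 1.76 (SE 0.15), at 6.69 to 7.17 against 4.93 to 5.25. ANKRD30A, a breast differentiation antigen, differed by 2.16 (SE 0.23), TMTC1, an O-mannosyltransferase of the endoplasmic reticulum, by 1.87, ASPH, an aspartate hydroxylase, by 1.74, SH3BGRL by 1.63, and PCTP, which transfers phosphatidylcholine, by 1.60. The genes of this paragraph were picked under the same condition, that the arrays of the 2 sides did not overlap.

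**Figure D1:**
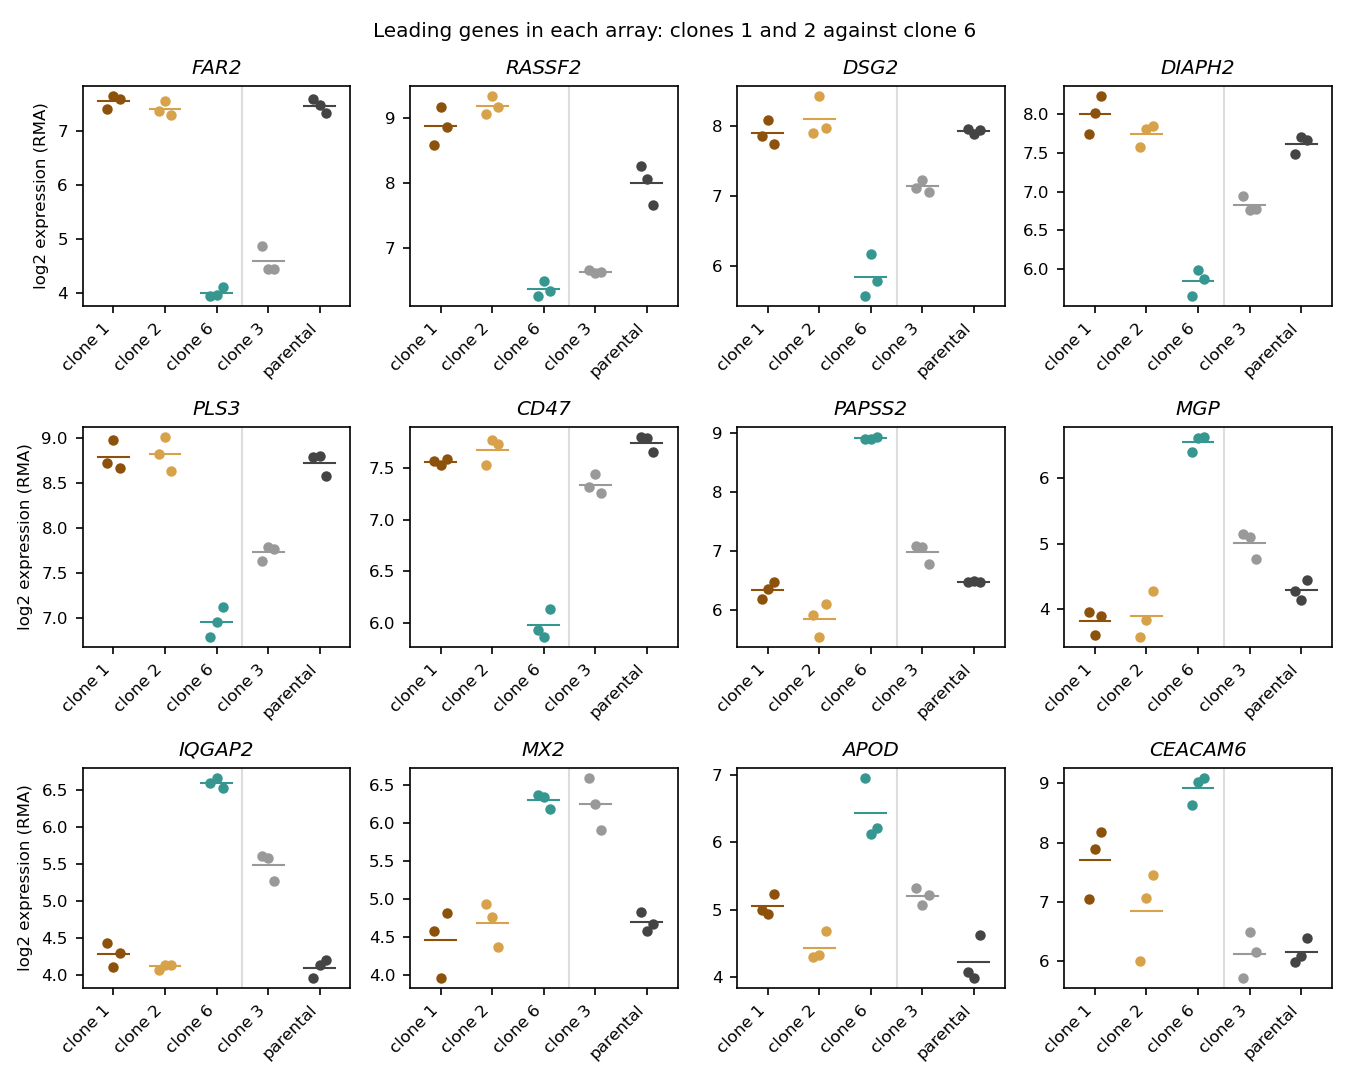
Log2 expression (RMA, vertical axes with their own ranges) of 12 leading genes in each array of clones 1, 2 and 6 and, right of the grey line, of clone 3 and parental cells. Points are arrays and bars group means. FAR2 lies between 7.31 and 7.66 in clones 1 and 2 and between 3.94 and 4.11 in clone 6. In each panel the clone 6 points stand apart from those of clones 1 and 2, which was a condition for choosing these genes.

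Genes lower in clones 1 and 2, that is, higher in clone 6, were led by TARP, a transcript of the T cell receptor gamma locus that is known from prostate and breast epithelium. TARP lay at 3.57, 4.53 and 5.11 in clones 1 and 2, and at 7.03, 7.89 and 8.29 in clone 6, a difference of -3.31 (SE 0.32, adjusted p = 3.13e-06). The lowest of these TARP levels lay below the array medians of all probe sets (4.05 to 4.10), so the size is uncertain. PAPSS2, which makes the sulphate donor used by sulphotransferases, lay at 5.54, 6.13 and 6.47 in clones 1 and 2, and at 8.90, 8.89 and 8.93 in clone 6. Its difference was -2.82 (SE 0.11, adjusted p = 1.04e-10), or 7.05-fold, and the parental mean (6.47) was close to clones 1 and 2. HS3ST3B1, one of the enzymes that use this donor, in heparan sulphate, was lower as well (-1.45, SE 0.16).

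MGP, the calcification inhibitor matrix Gla protein, lay at 3.58, 3.87 and 4.28 in clones 1 and 2, and at 6.40, 6.61 and 6.62 in clone 6 (-2.69, SE 0.14, adjusted p = 2.88e-09). IQGAP2, a scaffold protein of the actin cortex, lay at 4.07 to 4.43 in clones 1 and 2 and at 6.52 to 6.66 in clone 6 (-2.39, SE 0.10, adjusted p = 1.25e-10). Both were low in parental cells too, at 4.29 and 4.10, so clone 6 stood above the parental level. In clones 1 and 2, MGP and IQGAP2 were near the array medians of all probe sets (4.05 to 4.10), so the sizes are uncertain. The remaining genes with large negative differences were SRARP, a regulator of steroid receptors (-1.84), MX2, an interferon-induced GTPase (-1.73), ERP27, a protein of the endoplasmic reticulum (-1.70), APOD, the lipid carrier apolipoprotein D (-1.68), CEACAM6, a cell adhesion molecule (-1.64), NKX2-2, a homeobox factor (-1.63), NETO2, a receptor-associated membrane protein (-1.50), SLPI, an inhibitor of secreted proteases (-1.49), C1orf53 (-1.43) and NXN, the redox protein nucleoredoxin (-1.43). A second probe set for NKX2-2 differed by -0.13 (adjusted p = 0.419), so that gene's value rests on 1 of 2 probe sets.

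Between clones 1 and 2 no gene was called by limma (smallest adjusted p = 0.0507), 807 genes had an unadjusted p below 0.05, and the other settings tried called at most 6. A missed threshold does not show that the 2 clones are alike. Against clone 6, clone 1 had 1540 called genes (12.7%; 859 higher and 681 lower) and clone 2 had 1356 (11.2%; 691 higher, 5.69%, and 665 lower, 5.47%); these comparisons share the clone 6 arrays. FAR2 differed from clone 6 by 3.56 in clone 1 and by 3.42 in clone 2. Among the named genes, those with the smallest p between clones 1 and 2 were TEX14 and AXL. TEX14, a protein of intercellular bridges, was -1.09 in clone 1 relative to clone 2, and AXL, a receptor tyrosine kinase, -0.61 (adjusted p = 0.0658 for both). AXL lay at 6.10, 5.98 and 5.68 in clone 1, at 6.59, 6.47 and 6.56 in clone 2, and at 5.65, 5.56 and 5.55 in clone 6.

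Genes of mitosis made up the list with the most members called in 1 direction. Of 69 tested members of the list for mitosis and the spindle checkpoint, 34 were higher in clones 1 and 2 and 2 were lower, against 8.26% and 7.26% of all genes tested. The median difference of the list was 0.39, beside -0.0013 over all genes, and 64 of the 69 members had a positive difference. Leaving out 1 array at a time gave 24 to 39 higher members. CCNB2, a cyclin that drives entry into mitosis, lay at 8.24, 8.60 and 8.64 in clones 1 and 2, and at 7.56, 7.67 and 7.51 in clone 6 (0.95, SE 0.10, adjusted p = 6.36e-06). KNL1, a kinetochore scaffold, was higher by 0.91 (SE 0.12), NEK2, a kinase that separates the centrosomes, by 0.85 (SE 0.14), and SMC2, a condensin subunit, by 0.83 (SE 0.15). CCNB1, the other B-type cyclin, lay at 8.04 to 8.30 against 7.58 to 7.70 (0.56, SE 0.09, adjusted p = 0.000347). CDC20, which activates the anaphase-promoting complex, lay at 8.96, 9.05 and 9.43 against 8.16, 8.76 and 8.54 (0.64, SE 0.12, adjusted p = 0.00143). PLK1, a mitotic kinase, was not called: its difference was 0.32 (95% interval 0.08 to 0.57, adjusted p = 0.0749), and it was called without clone 6 replicate 2. The arrays did not overlap for 31 of the list's 69 tested members on the higher side, beside 8.73% of all genes tested.

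The higher mitotic genes lay on many chromosomes: 6 of the 34 lie on chromosome 15, 5 on chromosome 1 and 4 each on chromosomes 5 and 10. Of all tested genes, 19.3% were higher on chromosome 15, and 6.14%, 5.26% and 6.18% on chromosomes 1, 5 and 10. SMC2 lies on chromosome 9, where 18.1% were higher. SKA2 and TOP2A lie on chromosome 17, SKA2 in a run of higher neighbours and TOP2A also in the list around HER2. The 2 lower members of the mitosis list include CENPN of the kinetochore (-0.57), on chromosome 16, which was named after its value was seen. There was 1 lower member without clone 6 replicate 3. Over the list, the median level was 8.18 in clones 1 and 2, 7.91 in clone 6 and 8.44 in parental cells, so the clone 6 level was the lowest of these 3. Growth rates and the share of cells in mitosis were not among the data used here. Genes of DNA replication did not follow the mitotic genes: of 35 tested, 2 were higher and 2 lower (11.4% called, beside 15.5% of all genes), and the median was -0.13. GINS2, a subunit of the replicative helicase, was lower (-1.20, SE 0.22), and so was CCNE1, the cyclin of S phase entry (-0.76, SE 0.13). SLBP, which binds histone messages, was higher by 0.62 (SE 0.10), and E2F8, a repressor of the E2F family, by 0.75, though its call was lost in 8 of 21 alternative settings, among them those without clone 1 replicate 3, clone 2 replicate 2 or 3 and clone 6 replicate 1 or 2. The lower replication genes numbered 4 without clone 1 replicate 3, 5 without clone 2 replicate 3 and 6 without clone 6 replicate 1.

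The promoters of the mitosis list were read for elements known to time the expression of mitotic genes. These are the cell cycle genes homology region (CHR, searched as TTTGAA or TTCGAA on both strands) and the CCAAT box (CCAAT on both strands). Promoter windows of 300 bases around the annotated start came from the RefSeq promoter table (GRCh38.p14), which held 58 of the 69 tested list members and 9176 of the 12147 tested genes. The CHR letters stood in 42 of the 58 windows (72.4%) and in 21 of the 30 windows of higher members (70.0%), against 11.6% of all tested genes and 16.6% of all 27305 windows. The CCAAT letters stood in 43 of the 58 (74.1%), against 35.9% of all tested genes, and both elements in 34 (58.6%), against 4.95%. The list was chosen for mitotic genes, from which these elements are known, so its high shares follow from that choice. CHR letters were about as frequent in the higher members (70.0%) as in all 58 windows (72.4%), so they did not set the higher members apart. A match is a description of the letters and does not show that a factor binds. In 3 called genes the windows are printed here, with the CHR and CCAAT letters of either strand in capitals: CCNB2 (chr15:59104896-59105195, plus strand) has both elements, CDC20 (chr1:43358731-43359030, plus strand) has both, and NEK2 (chr1:211675572-211675871, minus strand) has CCAAT boxes and no CHR match.
CCNB2: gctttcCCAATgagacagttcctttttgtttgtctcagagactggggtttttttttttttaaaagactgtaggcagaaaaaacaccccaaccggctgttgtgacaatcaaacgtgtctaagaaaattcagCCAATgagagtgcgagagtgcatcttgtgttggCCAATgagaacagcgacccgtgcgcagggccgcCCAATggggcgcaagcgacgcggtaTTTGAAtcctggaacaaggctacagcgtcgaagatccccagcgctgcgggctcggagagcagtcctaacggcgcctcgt
CDC20: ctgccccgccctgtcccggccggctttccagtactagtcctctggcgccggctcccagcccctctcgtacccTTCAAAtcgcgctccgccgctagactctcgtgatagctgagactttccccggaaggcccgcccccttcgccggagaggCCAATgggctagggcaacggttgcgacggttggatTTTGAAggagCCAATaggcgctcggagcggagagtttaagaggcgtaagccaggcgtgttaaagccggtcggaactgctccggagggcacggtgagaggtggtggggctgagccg
NEK2: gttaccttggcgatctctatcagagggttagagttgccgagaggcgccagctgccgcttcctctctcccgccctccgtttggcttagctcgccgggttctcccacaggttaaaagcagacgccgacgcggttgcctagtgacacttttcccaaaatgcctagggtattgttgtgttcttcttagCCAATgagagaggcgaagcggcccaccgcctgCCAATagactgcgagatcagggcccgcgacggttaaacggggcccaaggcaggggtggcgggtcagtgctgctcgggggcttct

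**Figure D2:**
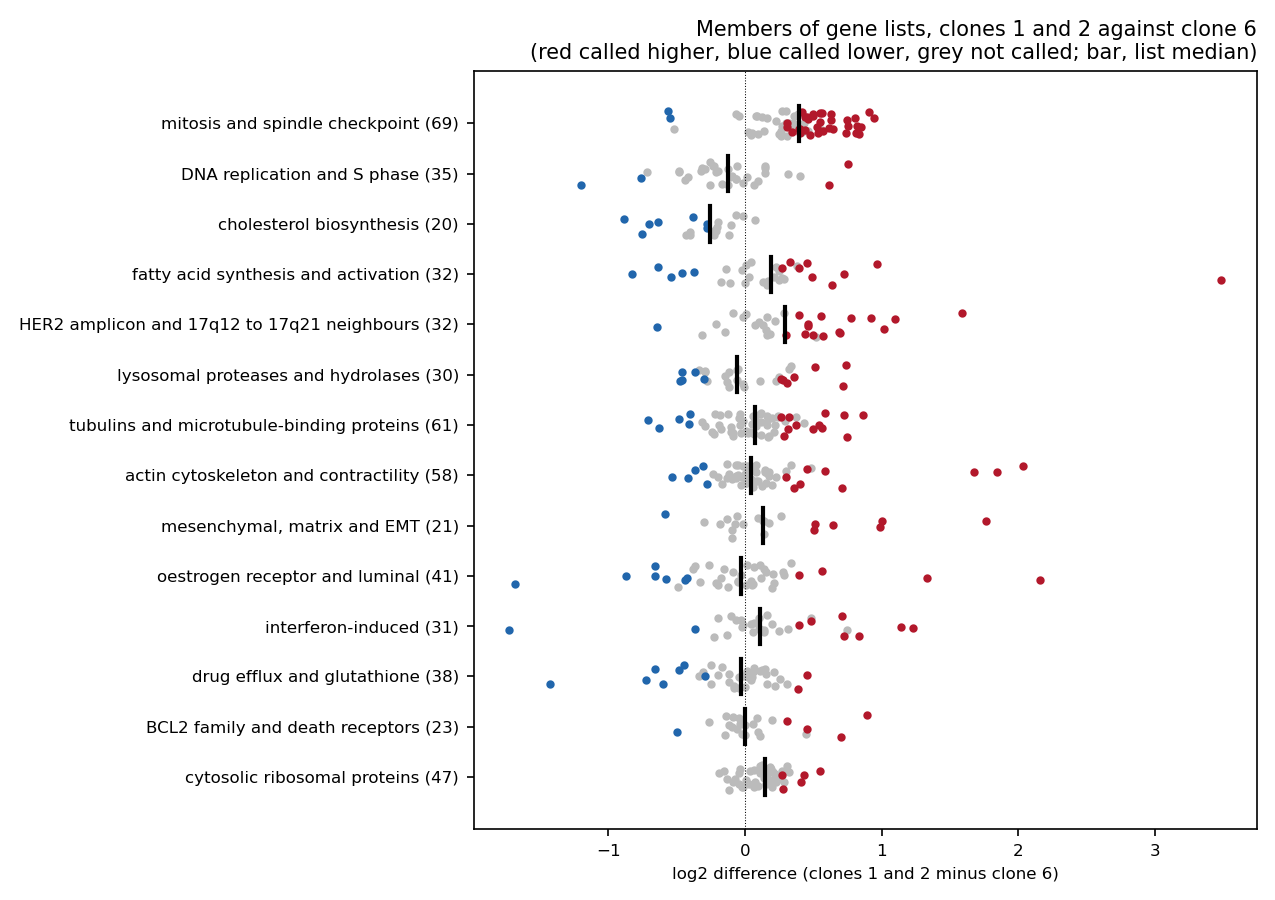
Log2 difference between clones 1 and 2 and clone 6 (horizontal axis) for the tested members of 14 gene lists, with the number of tested members in brackets; points are genes, red called higher, blue called lower, grey not called, and black bars are list medians. The mitosis list is shifted to the right (median 0.39) and the cholesterol list to the left (median -0.25).

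Cholesterol synthesis ran the other way. Of 20 tested genes of the pathway, 0 were higher and 7 were lower in clones 1 and 2, with a median of -0.25 and 1 positive difference. HMGCS1, which makes the substrate of the pathway's rate-limiting step, lay at 8.93, 9.42 and 9.70 in clones 1 and 2, and at 10.52, 10.18 and 10.16 in clone 6 (-0.88, SE 0.14, adjusted p = 0.000327). MVD, the decarboxylase of the mevalonate branch, was -0.75 (SE 0.12), ACAT2, a thiolase, -0.70 (SE 0.17), and DHCR7, the last enzyme of the route, -0.64 (SE 0.09), each with arrays that did not overlap. The lower genes numbered 4 without clone 6 replicate 3. The promoter window of HMGCS1 (chr5:43313363-43313662, minus strand) is shown because the gene had the list's largest difference. CCAAT letters, in capitals, stood in 13 of the 18 windows held for tested list members (72.2%), against 35.9% of all tested genes. They stood in 5 of the 6 windows held for lower members. These shares describe the promoters of the list and not the difference between the clones.
HMGCS1: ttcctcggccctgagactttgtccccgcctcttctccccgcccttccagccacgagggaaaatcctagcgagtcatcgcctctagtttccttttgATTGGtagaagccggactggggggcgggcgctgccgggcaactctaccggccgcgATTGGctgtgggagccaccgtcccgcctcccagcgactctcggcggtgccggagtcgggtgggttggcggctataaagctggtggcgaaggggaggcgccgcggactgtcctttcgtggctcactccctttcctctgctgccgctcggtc

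Genes that make and activate fatty acids were split. Of 32 tested, 9 were higher and 5 lower in clones 1 and 2, and the median was 0.19, but with clone 2 alone against clone 6 there were 5 higher ones. Beside FAR2, SCD5, a stearoyl-CoA desaturase, was higher by 0.97 (SE 0.09), at 7.02 to 7.50 against 6.25 to 6.31, and DGAT1, which completes triglycerides, by 0.72 (SE 0.11). ACSS2, which makes acetyl-CoA from acetate, was lower (-0.82, SE 0.12), at 8.26 to 8.62 against 9.23 to 9.54. Of 23 tested genes of fatty acid oxidation and peroxisomes, 3 were higher and 3 lower. PEX11A, which helps peroxisomes divide, was lower (-0.87, SE 0.12), while the call of HSD17B4, higher by 0.33, was lost without clone 6 replicate 2, and that of ECI1, at -0.43, without clone 6 replicate 3; without these arrays 0 were higher and 1 was lower, in that order.

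Genes around HER2 on the long arm of chromosome 17 were examined as 1 list. ERBB2, the gene of HER2 itself, carried no symbol and was not analysed here. Of 32 tested genes from the list of the amplicon and its neighbours, 15 were higher, 1 was lower and 16 were not called, with a median of 0.29. GRB7, an adaptor that is amplified together with HER2, lay at 9.96, 10.26 and 10.43 in clones 1 and 2, and at 9.37, 9.22 and 9.34 in clone 6 (0.92, SE 0.11, adjusted p = 3.55e-05). Its parental mean was 10.36, so clone 6 was below the parental level. GSDMB, a gasdermin, lay at 9.21 to 9.86 in clones 1 and 2, and at 8.77, 7.36 and 7.72 in clone 6 (1.59, SE 0.25). SRCIN1, an inhibitor of SRC, was higher by 1.02 (SE 0.10) and RAPGEFL1, a putative exchange factor, by 1.10 (SE 0.19). The 1 lower gene, named after its value was seen, was IKZF3, a lymphoid transcription factor (-0.65), whose call was lost without clone 6 replicate 2. DNA copy number was not measured, so a change in copies and a change in transcription cannot be told apart.

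Along chromosome 17, on either side of the HER2 region, neighbouring genes were higher together. The longest unbroken run of called genes in RefSeq order was 8 genes from TEX14 to YPEL2, all higher in clones 1 and 2, with a median of 0.88. It holds RAD51C, a recombination factor (0.84), TRIM37, a ubiquitin ligase that limits centrosome formation (0.83), SKA2 of the outer kinetochore (0.74), PRR11 (0.86), GDPD1 (0.89) and MIR454 (1.76). TRIM37 lay at 11.26, 11.34 and 11.49 in clones 1 and 2, and at 10.50, 10.43 and 10.62 in clone 6. In this run the median was 0.23 above the parental level in clones 1 and 2 and -0.63 relative to it in clone 6. The 3 other higher runs on this chromosome are 1 of 6 from DHX40 to MIR4737 (median 0.76), which holds HEATR6 (0.97) and VMP1 (0.41), 1 of 6 from TOM1L1 to PCTP (median 0.79), which holds COX11 (0.78) and MMD (0.83), and 1 of 6 from GGNBP2 to MIR2909 (median 0.53), which holds AATF (0.53). The chromosome also has 1 lower run, of 4 genes from MYO1C to PRPF8 (median -0.34). In the runs, a microRNA gene inside a called host gene counts as a member of its own. That applies to MIR454 in SKA2, MIR21 in VMP1, MIR4737 in HEATR6 and MIR2909 in AATF, so run lengths overstate the number of separate neighbours. GGNBP2 lost its call in 4 of 21 settings, among them those without clone 6 replicate 1 or 2. There were 25 runs of 4 or more genes in all, and the run of 6 on chromosome 11 from TSG101 to NAV2 (median 0.52) holds 4 genes, TSG101, MISFA, E2F8 and NAV2, that lost their call in some setting.

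Of 505 microRNA genes tested, 16 were higher and 9 lower in clones 1 and 2 (4.95% called, beside 15.5% of all genes). Those named here are shown by their mature sequences from RefSeq (GRCh38.p14), with the seed, bases 2 to 8, in capitals. Mature microRNAs were not measured; the arrays were hybridised with labelled copies of total RNA, and whether the signal came from the hairpin or from a longer host transcript was not tested. MIR454 (chr17:59137787-59137809, minus strand, for its 3p arm) lies in SKA2, MIR21 (chr17:59841273-59841294, plus strand) in VMP1, MIR579 (chr5:32394392-32394414, minus strand) in ZFR and MIR5047 (chr17:64501230-64501250, minus strand) in DDX5, while MIR4521 (chr17:8186948-8186969, plus strand) has no tested host gene.
hsa-miR-454-3p: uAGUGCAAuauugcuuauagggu
hsa-miR-454-5p: aCCCUAUCaauauugucucugc
hsa-miR-21-5p: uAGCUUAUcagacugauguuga
hsa-miR-579-3p: uUCAUUUGguauaaaccgcgauu
hsa-miR-5047: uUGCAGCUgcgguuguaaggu
hsa-miR-4521: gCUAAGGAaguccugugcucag

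MIR21, the gene of a microRNA often abundant in carcinomas, lay at 6.83, 7.19 and 7.41 in clones 1 and 2, and at 6.40, 5.28 and 5.70 in clone 6 (1.37, SE 0.21, adjusted p = 0.000338). MIR454 lay at 5.05, 5.41 and 6.62 against 4.28, 3.05 and 4.30 (1.76, SE 0.33, adjusted p = 0.00132). Their host genes were higher as well, VMP1 by 0.41 and SKA2 by 0.74. The clone 6 levels of MIR454 lay near or below the medians of all probe sets in those arrays (4.03 to 4.10). MIR579 (1.24, SE 0.23) and MIR5047 (0.89, SE 0.19) were higher while their hosts, ZFR (-0.03) and DDX5 (0.10), were not called. In MIR5047, clone 1 replicate 3 (8.83) stood above the other arrays of clones 1 and 2. MIR4521 was lower, at 6.22, 7.50 and 7.71 in clones 1 and 2 against 8.43, 8.60 and 8.65 in clone 6 (-1.32, SE 0.25, adjusted p = 0.00147). Of the 25 called microRNA genes, 12 lie inside a tested gene, and for 5 of these the host was called in the same direction. The remaining named ones, MIR573, MIR2392, MIR4312 and MIRLET7I, each lost their call without clone 6 replicate 2, MIR2392 and MIR4312 also without clone 6 replicate 3, and MIR4312 also without clone 2 replicate 1 or 3.

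**Figure D3:**
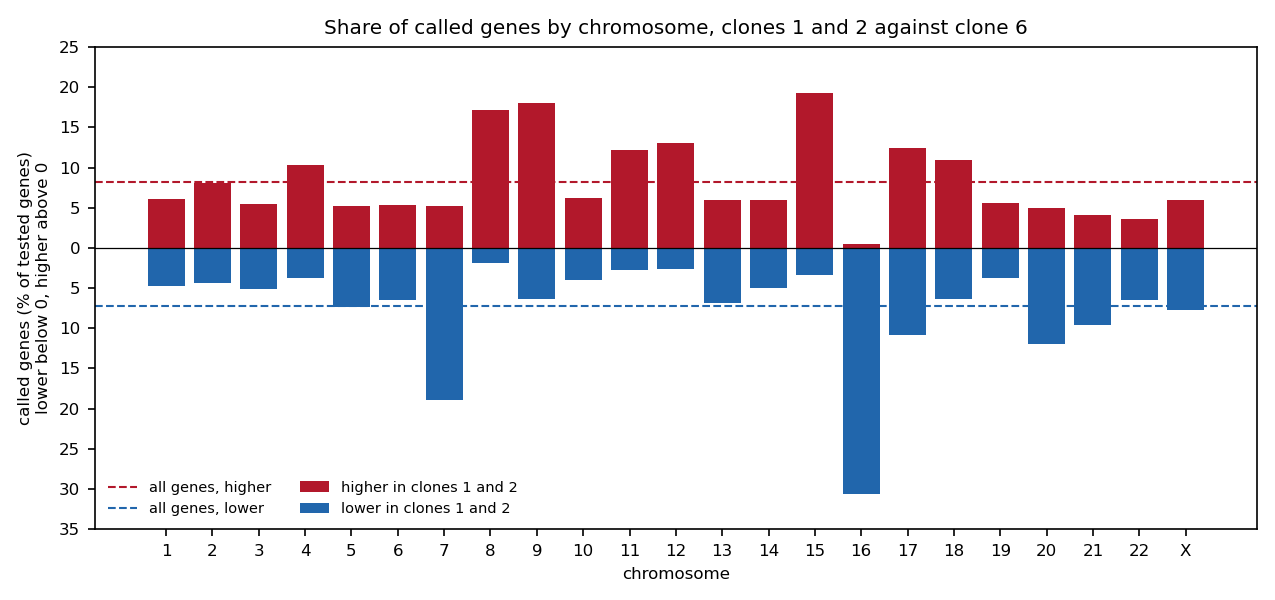
Share of tested genes on each chromosome that were called higher (red, above 0) or lower (blue, below 0) in clones 1 and 2 than in clone 6, in percent; dashed lines mark the shares over all genes (8.26% and 7.26%). Chromosome 16 stands out on the lower side with 30.6%, followed by chromosome 7 with 19.0%.

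The called genes were unevenly placed along the genome. On chromosome 16, 174 of 568 tested genes (30.6%) were lower in clones 1 and 2 and 3 were higher, with a median difference of -0.19. Lower genes came from all 11 stretches of 51 or 52 neighbouring genes into which the chromosome was cut, between 9 and 24 per stretch. Relative to parental cells the median over the chromosome was 0.11 in clone 6 and -0.07 in clones 1 and 2. NETO2, GINS2, MVD, ABAT and CX3CL1, named in their groups, are among the lower genes there. Of the lower genes in lists below, it held 2 of 2 for the respiratory chain and 2 of 3 for the lysosomal membrane and autophagy. For MAPK and PI3K signalling it held 2 of 3, for lysosomal proteases and hydrolases 2 of 5, and for luminal genes 2 of 7. The lower count on chromosome 16 was 109 without clone 6 replicate 3, and the 3 higher genes became 7 without clone 6 replicate 1 and 5 without clone 6 replicate 2.

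On chromosome 7, 109 of 575 genes (19.0%) were lower, and these lay mostly beyond the first 4 stretches. The first 4 held between 2 and 4 lower genes each, and each of the other 8, from POM121L12 to VIPR2, between 8 and 17. On chromosome 17, 97 of 779 genes were higher and 84 lower, in separate places: the first 5 stretches, from MGC70870 to FLOT2, held 8 to 18 lower genes each and at most 1 higher. The stretches from DHRS13 to SLFN12 and from GAS2L2 to GSDMA held 15 and 21 higher genes, and that from RNF126P1 to DCAF7, with the run around TRIM37, held 20. The lower genes of chromosome 17 numbered 48 without clone 6 replicate 2 and 41 without clone 6 replicate 3. NXN and HS3ST3B1 are among them.

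Higher genes were frequent on chromosomes 15 (74 of 384, 19.3%), 9 (88 of 487, 18.1%) and 8 (74 of 430, 17.2%). On chromosome 9 they were concentrated in 3 neighbouring stretches from PSAT1 to STOM, with 22, 18 and 19 higher genes of 49 each, followed by 2 stretches up to RAPGEF1 with 12 and 13 lower ones. The lower genes of chromosome 9 numbered 20 without clone 6 replicate 2 and 19 without clone 6 replicate 3. Chromosome 15 had 42 higher genes and chromosome 8 had 49 without clone 6 replicate 2. These are counts of expression calls, and DNA was not examined.

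**Figure D4:**
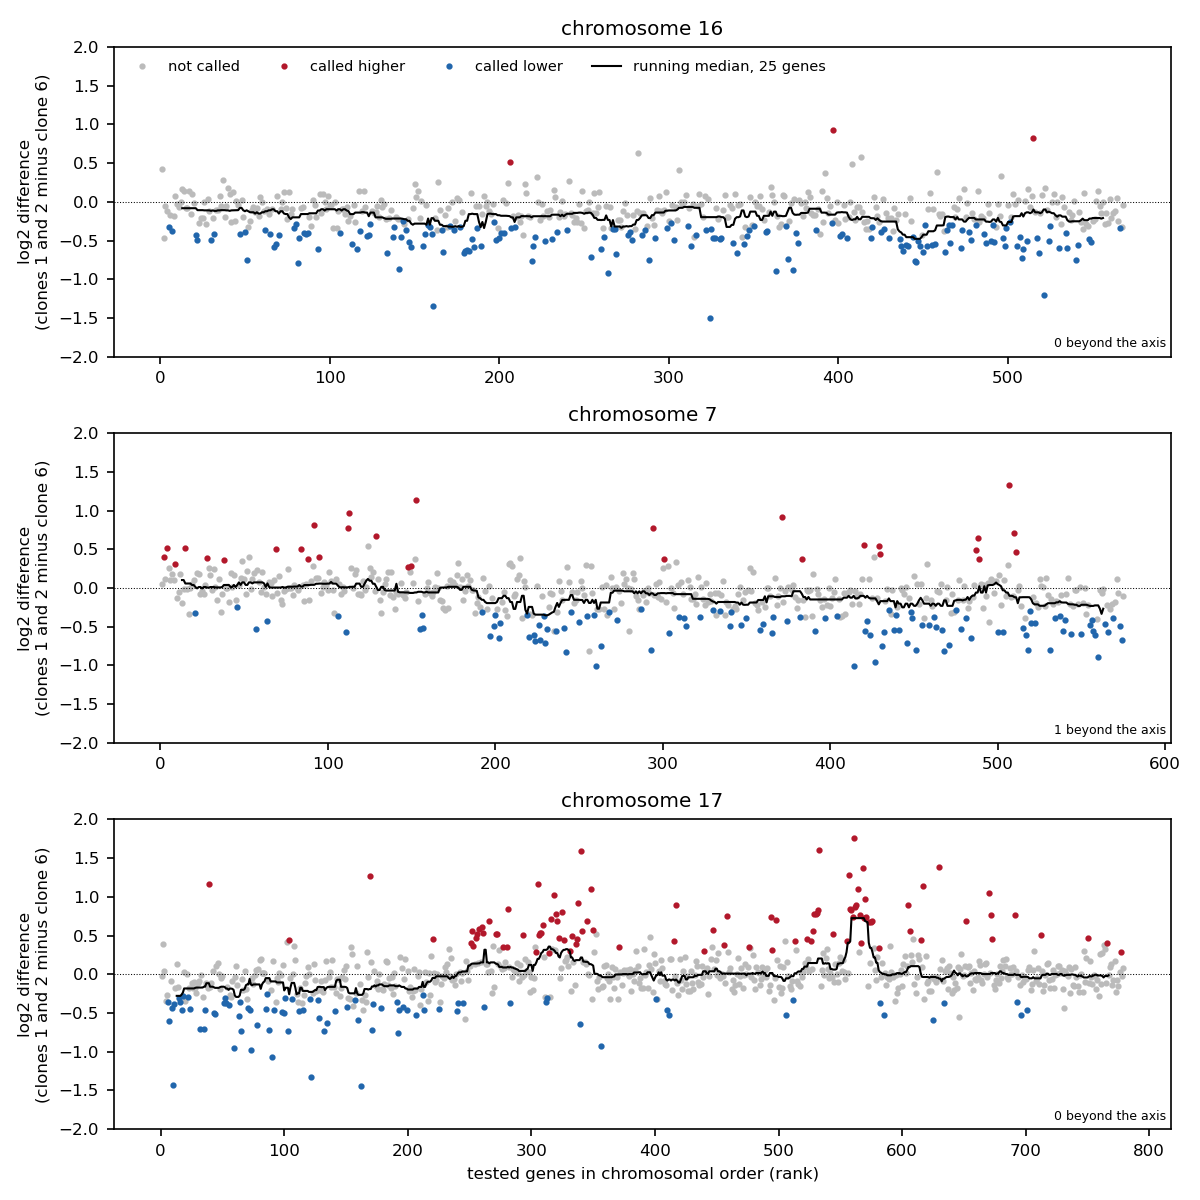
Log2 difference between clones 1 and 2 and clone 6 for every tested gene of chromosomes 16, 7 and 17 in RefSeq gene order (horizontal axis, rank); red called higher, blue called lower, grey not called, black line the running median of 25 genes. The line stays below 0 along chromosome 16, lies mostly below 0 after the first part of chromosome 7 (where 1 gene, TARP at -3.31, is beyond the axis), and on chromosome 17 runs below 0 first and then rises in 2 places.

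Lysosomal enzymes, which digest the antibody, moved in both directions. Of 30 tested proteases and hydrolases, 7 were higher and 5 lower in clones 1 and 2, and the median was -0.06. CTSZ, cathepsin Z, lay at 6.56, 6.65 and 6.82 in clones 1 and 2, and at 6.04, 5.96 and 5.86 in clone 6 (0.72, SE 0.09, adjusted p = 3.69e-05). IDS, which removes sulphate from glycosaminoglycans, was higher by 0.74 (SE 0.12), and CTSB, cathepsin B, by 0.51 (SE 0.09), at 5.60 to 5.92 against 5.09 to 5.36. GALNS, another sulphatase of this route, was lower (-0.48, SE 0.10). CTSD, cathepsin D, was not called: its difference was 0.25 (95% interval 0.06 to 0.45, adjusted p = 0.0801), and it was called without clone 1 replicate 3. The counts were unsteady: 3 were higher without clone 2 replicate 1 or without clone 6 replicate 2, 3 were lower without clone 1 replicate 3, clone 2 replicate 3 or clone 6 replicate 2, and 4 were higher and 1 lower without clone 6 replicate 3.

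Genes of the lysosomal membrane and of autophagy were called about as often as all genes, 2 higher and 3 lower of 32. OPTN, optineurin, an autophagy receptor, was higher by 1.09 (SE 0.10), at 5.40, 5.76 and 5.88 against 4.80, 4.51 and 4.53. Without clone 6 replicate 3, OPTN was the 1 higher gene of this list that was left, and the lower genes numbered 0 without clone 6 replicate 1 and 1 without clone 6 replicate 2. In endocytosis and vesicle traffic, 3 of 47 genes were higher and 9 lower. LRP2, the large scavenger receptor megalin, was lower (-1.08, SE 0.14), at 7.02 to 7.74 against 8.77, 8.20 and 8.34, while its parental mean was 5.90, below all 3 clones. SYTL5, a Rab27-binding protein, was lower as well (-0.82, SE 0.16). In traffic, 1 gene was higher and 3 were lower without clone 6 replicate 3.

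Among microtubule proteins, the target system of the poison, 12 of 61 were higher and 5 lower, with a median of 0.07. Tubulin genes themselves carried no symbol and were not analysed here. EML5, a microtubule-binding protein, was higher by 0.86 (SE 0.19), MAPT, the microtubule stabiliser tau, by 0.75 (SE 0.17), at 6.07 to 6.79 against 5.30 to 5.70, and KATNBL1, a regulator of the severing enzyme katanin, by 0.73 (SE 0.12). MID1, a ubiquitin ligase on microtubules, was lower (-0.71, SE 0.10), at 6.00 to 6.35 against 6.63 to 6.92. The higher count was 7 without clone 6 replicate 2. Of 58 genes of the actin cytoskeleton, 9 were higher and 5 lower (24.1% called, beside 15.5% of all genes). The 3 with the largest differences were DIAPH2, PLS3 and CFL2, described above, and ZYX, the adhesion protein zyxin, followed at 0.71 (SE 0.17). Without clone 6 replicate 3, 5 actin genes were higher and 1 lower; the lower count was also 1 without clone 6 replicate 2 and 3 without clone 1 replicate 1 or 2 or clone 6 replicate 1.

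Luminal and oestrogen-linked genes differed in both directions, 4 higher and 7 lower of 41. GATA3, a factor that defines luminal cells, lay at 5.65, 6.15 and 6.42 in clones 1 and 2, and at 6.60, 6.78 and 6.92 in clone 6 (-0.66, SE 0.13, adjusted p = 0.00166). Its parental mean was 9.12 and that of clone 3 was 8.36, so it was low in all 3 clones compared here. PIP, a secreted protein of apocrine cells, was higher by 1.33 (SE 0.17), and ABAT, which breaks down GABA, was lower (-0.87, SE 0.14). The oestrogen receptor gene ESR1 (-0.17, 95% interval -0.43 to 0.08, adjusted p = 0.392, and -0.09 without clone 2 replicate 1) and PGR, the progesterone receptor gene (-0.49, 95% interval -1.002 to 0.02, adjusted p = 0.202), were not called. The PGR value ranged from -0.71 to -0.13 when 1 array at a time was left out, with -0.13 without clone 6 replicate 1. TFF1, an oestrogen-induced trefoil peptide, was -0.58 and lost its call with clone 2 alone against clone 6; in that comparison 7 genes of the list were higher and 4 lower.

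Of the CEACAM adhesion molecules, 3 were lower in clones 1 and 2 and none was higher. CEACAM6 lay at 5.99, 7.26 and 8.18 in clones 1 and 2, and at 8.63, 9.02 and 9.09 in clone 6 (-1.64, SE 0.28, adjusted p = 0.000636), with a parental mean of 6.15. CEACAM7 was lower too (-1.38, SE 0.30), at 4.93 to 6.53 against 7.07 to 7.53, and so was CEACAM1 (-0.60, SE 0.09), named after its value was seen. CEACAM5 was not called, at 11.04, 11.34 and 11.53 against 11.47, 11.48 and 11.46 (-0.17, 95% interval -0.44 to 0.10, adjusted p = 0.443); it was high in all 3 clones beside a parental mean of 8.44. Of 46 genes of junctions and adhesion, 4 were higher and 5 lower (19.6% called, beside 15.5% of all genes). PKP2, a desmosomal plaque protein, was higher by 0.68 (SE 0.10), in the same direction as DSG2.

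Of 21 tested mesenchymal and matrix genes, 6 were higher and 1 lower, with a median of 0.13. With TNC were TIMP1, an inhibitor of metalloproteinases (1.01, SE 0.17), CD44, the hyaluronan receptor (0.99, SE 0.21), and AXL (0.64, SE 0.09). CD44 lay at 5.61 to 6.64 in clones 1 and 2, and at 5.54, 5.01 and 4.78 in clone 6. The lower member, LOX, which crosslinks collagen (-0.58), was not called without clone 6 replicate 3, and 2 members were lower without clone 1 replicate 2. Of 22 basal and myoepithelial genes, 3 were higher and 2 lower (22.7% called, beside 15.5% of all genes). BCL11A, a transcription factor, was 0.84 (SE 0.17) and KRT23, a keratin, -0.92 (SE 0.17). CST3, the protease inhibitor cystatin C, lay at 10.05 to 10.37 against 8.84 to 9.14 (1.20, SE 0.10, adjusted p = 3.68e-07). In its list of kallikreins and secreted protease inhibitors, 4 of 25 were higher and 1 lower (20% called, beside 15.5% of all genes). There, 2 were higher without clone 1 replicate 1, clone 2 replicate 1 or clone 6 replicate 2 or 3.

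The HER family receptors ERBB3 and ERBB4 were not called. ERBB3 differed by -0.04 (95% interval -0.26 to 0.18, adjusted p = 0.87) and ERBB4 by -0.05 (95% interval -0.30 to 0.21, adjusted p = 0.863); the sign of both changed in some settings. Of 14 tested receptors and ligands of the family, 1 was higher and 1 lower, BTC and LRIG1 (14.3% called, beside 15.5% of all genes). Each lost its call without clone 6 replicate 2 or 3, LRIG1 also without clone 6 replicate 1, clone 1 replicate 2 or clone 2 replicate 2. Among receptor tyrosine kinases, 4 of 41 were higher and 6 lower (24.4% called, beside 15.5% of all genes). GFRA1, the receptor part that binds GDNF, was lower (-1.02, SE 0.13), at 4.22 to 4.63 against 5.60, 5.07 and 5.37, FGFR4, a fibroblast growth factor receptor, was lower (-0.81, SE 0.09), and so was FLT3 (-0.78, SE 0.16). The higher count was 2 without clone 1 replicate 1 or 2 or clone 6 replicate 1 or 3.

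Downstream, 7 of 51 genes of MAPK and PI3K signalling were higher and 3 lower (19.6% called, beside 15.5% of all genes). The median was 0.06. SPRY2, a feedback inhibitor of receptor signals, was higher by 0.72 (SE 0.11), NF1, which switches Ras off, by 0.52 (SE 0.08), TSC1, which restrains mTOR, by 0.51 (SE 0.08), and DUSP4, a MAP kinase phosphatase, by 0.48 (SE 0.11). The other called members, named after their values were seen, were MAP2K1 (0.28), MAP2K2 (0.47) and KSR1 (0.46), which carry the MAPK signal, on the higher side, and TSC2 (-0.36), PHLPP2 (-0.37) and DUSP14 (-0.36), which restrain signalling, on the lower side. Brakes and activators were thus among the called members, and no activity was measured. Of 37 genes of Notch and hedgehog signalling, 7 were higher and 2 lower (24.3% called, beside 15.5% of all genes). GLI3, a transcription factor of the hedgehog pathway, was higher by 1.14 (SE 0.10), at 5.91 to 6.35 against 5.00 to 5.09. Without clone 6 replicate 2 or 3 the higher count was 4, and without replicate 2 the lower count was 1. Of 36 Wnt genes, 3 were higher and 1 lower (11.1% called, beside 15.5% of all genes). LGR4, a receptor for R-spondins, was 0.60 (SE 0.09) and DKK1, a secreted inhibitor, -1.07 (SE 0.18). The lower Wnt count was 2 without clone 1 replicate 2 or without clone 6 replicate 1.

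Of 62 G protein-coupled receptors, 2 were higher and 4 lower (9.68% called, beside 15.5% of all genes). NTSR1, a neurotensin receptor, was higher by 0.77 (SE 0.15), and ADGRV1, an adhesion receptor, lower (-0.95, SE 0.17). The higher count was 1 in 6 of the 9 fits without 1 array (without clone 1 replicate 2 or 3, clone 2 replicate 1 or 2, or clone 6 replicate 1 or 3), and the lower count was 2 without clone 6 replicate 2. CXCR4, a chemokine receptor, was not called (-0.12, 95% interval -0.39 to 0.14, adjusted p = 0.596), nor was NPY1R, a receptor for neuropeptide Y (0.44, 95% interval 0.10 to 0.77, adjusted p = 0.0738), though NPY1R was called without clone 6 replicate 2. Chemokines, cytokines and their receptors were 0 higher and 4 lower of 25 (16% called, beside 15.5% of all genes), and 1 was higher without clone 1 replicate 3. IL17RB, a receptor for interleukin 17 cytokines, was lower (-1.01, SE 0.15), and so was CX3CL1, fractalkine (-0.88, SE 0.13).

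Of 31 interferon-induced genes, 7 were higher and 2 lower, with a median of 0.11. SP100, a nuclear body protein, lay at 5.18 to 5.58 against 3.99 to 4.26 (1.23, SE 0.10, adjusted p = 3.05e-07), HERC5, a ligase for ISG15, was higher by 1.14 (SE 0.17) and HERC6 by 0.83 (SE 0.14). MX2 went the other way and had the largest difference of the list: 3.97, 4.67 and 4.94 in clones 1 and 2, and 6.37, 6.35 and 6.18 in clone 6 (-1.73, SE 0.17, adjusted p = 5.99e-06), with a clone 3 mean of 6.25. The clone 6 levels of SP100 and the lowest MX2 level lay near the array medians of all probe sets (4.03 to 4.10). The lower count was 1 without clone 6 replicate 1. Of 22 genes of antigen presentation and immune recognition, 2 were higher, CD47 and B2M, and 3 lower (22.7% called, beside 15.5% of all genes). B2M, the light chain of class I molecules, was higher by 0.65 (SE 0.10), and by 0.41 in its second probe set.

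Of 23 genes of the BCL2 family and death receptors, 4 were higher and 1 lower (21.7% called, beside 15.5% of all genes). PMAIP1, the pro-death protein NOXA, was higher by 0.89 (SE 0.16), APAF1, the core of the apoptosome, by 0.70 (SE 0.12), and BCL2L1, which encodes the survival protein BCL-XL, was lower (-0.50, SE 0.10). BCL2L1 lay at 7.41 to 7.92 in clones 1 and 2, where clone 1 replicate 2 held the highest value, and at 7.95, 8.12 and 8.08 in clone 6. In this list 2 genes were higher without clone 6 replicate 2. Of 18 p53 target genes, 3 were higher and 0 lower: PMAIP1, TP53I3 (0.72, SE 0.15) and POLK, a bypass polymerase (0.67, SE 0.10). That is 16.7% of the list called, beside 15.5% of all genes.

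In drug export and glutathione metabolism, 2 of 38 genes were higher and 7 lower (23.7% called, beside 15.5% of all genes). With NXN were KEAP1, which holds the oxidative stress factor NRF2 in check (-0.72, SE 0.12, at 7.67 to 8.07 against 8.29, 8.65 and 8.80), and GSS, glutathione synthetase (-0.60, SE 0.10). MVP, the major vault protein, was not called (-0.34, 95% interval -0.60 to -0.08, adjusted p = 0.0781), but was without clone 2 replicate 1. Without clone 6 replicate 3, 4 were lower. Of 33 genes of amino acid supply and the unfolded protein response, 2 were higher and 7 lower. ASS1, which makes the precursor of arginine, lay at 9.43 to 10.35 in clones 1 and 2, and at 9.08, 8.22 and 8.13 in clone 6 (1.39, SE 0.27, adjusted p = 0.00188), and PSPH, the last enzyme of serine synthesis, was lower (-0.65, SE 0.12). This list had 1 higher and 4 lower genes without clone 6 replicate 2, and 1 and 3 without clone 6 replicate 3.

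Hypoxia and glycolysis had 3 higher and 3 lower of 30 (20% called, beside 15.5% of all genes). LDHB, a lactate dehydrogenase subunit, was at 0.76 (SE 0.13). In this list 5 were higher without clone 6 replicate 1. Its lower count was 1 without clone 1 replicate 2 or clone 6 replicate 1 and 0 without clone 6 replicate 3. The mitochondrial respiratory chain had 1 higher and 2 lower of 15 (20% called, beside 15.5% of all genes). The 2 lower ones lie on chromosome 16, where 30.6% of tested genes were lower. The higher count was 0 without clone 1 replicate 2, clone 6 replicate 1 or clone 6 replicate 2 and 2 without clone 6 replicate 3. The lower count was 1 and 0 without clone 6 replicates 2 and 3. Cytosolic ribosomal proteins had 5 higher and 0 lower of 47 (10.6% called, beside 15.5% of all genes), with a median of 0.15. RPS7 was at 0.55 (SE 0.11) and RPL27 at 0.43 (SE 0.09). The higher count was 2 without clone 6 replicate 2 and 3 without clone 6 replicate 3.

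Set beside the parental line, as a description, the parental mean of called genes lay more often on the side of clones 1 and 2. The same shares over all tested genes were not computed. The mean of clones 1 and 2 averages 6 arrays and that of clone 6 averages 3, so closeness was not measured on equal terms. Of the 1003 genes higher in clones 1 and 2, the parental mean was nearer to clones 1 and 2 in 694 and nearer to clone 6 in 309. Of the 882 lower genes it was nearer to clones 1 and 2 in 498. Among differences of at least 2-fold the numbers were 54 of 68 and 31 of 41. Exceptions with large differences include NETO2, whose parental mean of 9.86 lay with clone 6 (9.79 to 10.24) above clones 1 and 2 (7.65 to 9.04), and ERP27, with a parental mean of 5.94. Clone 3, the other resistant line, was nearer to clone 6 for 598 of the higher and 589 of the lower genes. Among differences of at least 2-fold, it was nearer to clone 6 for 48 of the 68 higher genes and 20 of the 41 lower ones.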

How the data were processed

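Total RNA of 15 samples was hybridised to Affymetrix expression arrays. The authors deposited log2 values for 53617 probe sets; the submitters' processing notes name the Transcriptome Analysis Console, RMA and version 1.4.1 of Affymetrix Expression Console, without their roles, and scanner files were not used here. RMA subtracts background and quantile-normalizes, which compresses low values and removes shifts shared by all genes. Gene names came from the platform annotation: 16098 probe sets (30.0%) had 1 symbol and 37519 had none. For each symbol the probe set with the highest mean over the 15 arrays was kept, and a gene was tested if it lay above the 40th percentile of its own array in at least 3 arrays (12147 genes). The number of arrays limits the precision.

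limma 3.58.1 (R 4.3.3; lmFit and eBayes) fitted 1 mean for each of the 5 groups, and the contrast was the average of the clone 1 and clone 2 means minus the clone 6 mean. P-values were adjusted by Benjamini-Hochberg over all tested genes. On simulated data for this contrast (200 changed genes, 12147 genes, 5 runs) the fit recovered 0.734 of 1.5-fold, 0.976 of 2-fold and all 4-fold changes, with a false share of 0.0583 among calls. The simulated noise was independent between arrays, and far fewer genes changed than the 1885 called here. These rates therefore need not hold for the real calls. Named genes were the 15 with the largest called difference in each direction, up to 4 called per list and up to 5 called microRNA genes per direction. The leading 15 and the microRNA genes were taken only from genes whose arrays of the 2 sides did not overlap. The longest runs of neighbouring called genes (5 runs) and a fixed set were added. The members and lists were chosen with earlier results of these data known. Alternatives were other filters, normalizations, probe set choices, array weights, variance models, a replicate block, each clone alone, and each array left out. Replicates are separate arrays of 1 line, so p-values measure the spread within these lines. Figures used matplotlib 3.10.9 (Python 3.11.15).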

Additional observations from a re-analysis of the deposited data

Results flagged for a closer look

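Among the 188 named genes, the highest or lowest of the 6 arrays of clones 1 and 2 was tested for standing apart by Dixon's criterion for 6 values, and 8 genes had such an array; chance alone flags about 5 percent of groups. CFL2 was 5.94 in clone 1 replicate 2, with the others between 5.27 and 5.45. BCL2L1 was 7.92 in the same array, DHX40 was 11.1 and MIR5047 was 8.83 in clone 1 replicate 3. GFRA1 was 4.63 and ERBB4 was 4.84 in clone 2 replicate 2. ACSS2 was 8.26 and TBC1D3P1-DHX40P1 was 6.58 in clone 2 replicate 3. Except for ERBB4, which was not called, these genes kept their call without each of those arrays.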

How the results depend on the processing

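Of 178 named genes that were called, 139 kept their call in all 21 alternative settings and 39 lost it in at least 1, most often without clone 6 replicate 2 (26) or replicate 3 (22), and the cause was not tested. Leaving out 1 array at a time gave 1260 to 1813 called genes for clones 1 and 2 against clone 6 (680 to 993 higher, 537 to 918 lower), 1014 to 1599 for clone 1 alone, 910 to 1444 for clone 2 alone and 0 to 1 between clones 1 and 2. At an adjusted p below 0.01 the counts were 1061 (567 higher, 494 lower), 746 for clone 1 and 687 for clone 2, and at 2-fold or more 109 (68 and 41), 111 and 115. Between clones 1 and 2, array weights called 4 genes, the trended robust fit 5, the mean of probe sets 2, renewed quantile normalization 6 and the replicate block 6. ERBB3 changed sign without clone 1 replicate 3 (0.0052) and without clone 6 replicate 1 (0.0105; lowest value -0.12, without clone 6 replicate 2), and ERBB4 with array weights (0.0546), without clone 6 replicate 1 (0.112; lowest -0.18, without clone 6 replicate 2) and with clone 2 alone (0.0203). Renewed quantile normalization gave 929 higher and 1003 lower genes. Deviations of same-numbered arrays correlated from -0.05 to 0.46, with 8 of 9 pairs positive and 7 above 0.1. Those of differently numbered arrays correlated from -0.38 to 0.14. The second principal component (18.0%) was highest in replicate 1 and lowest in replicate 3 of each clone, a hint that arrays of 1 number share something the labels do not name. Since not every pair exceeded 0.1, the numbers were not taken as pairing; with them as a replicate block 2103 genes were called (1115 higher, 988 lower), and among named genes NPY1R and MVP became called and none lost its call.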

Other observations

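Among gene biotypes, 16.9% of protein-coding genes were called (940 higher, 816 lower in clones 1 and 2) and 7.47% of 897 long noncoding RNA genes (30 higher, 37 lower).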
